A study of Mus musculus with 6 samples.

Results

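The methylation of 4 Notch pathway genes, Jag1, Notch1, Notch3 and Hes1, was followed at 446 CpG sites of 943307 in all, chosen by fixed genome spans around the genes. In this pathway a ligand on one cell binds a receptor on a neighbouring cell. Binding lets proteases cut the receptor, and the freed intracellular domain enters the nucleus, where it joins the DNA-binding protein Rbpj and switches on target genes. Jag1 encodes a ligand, Notch1 and Notch3 encode receptors, and Hes1 encodes a transcriptional repressor that is a classical target. In the kidney the pathway guides the patterning of the nephron during development, and its reactivation in the adult kidney is known from models of fibrosis. Methylation of cytosine at CpG sites is low at most CpG-rich promoters and high in most other parts of the genome.

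The CpG methylation of these 4 genes was measured by reduced representation bisulfite sequencing (RRBS) of DNA from kidney cortex and outer medulla of male, wild-type C57BL/6J mice. RRBS cuts DNA with MspI at CCGG, sequences short fragments after bisulfite treatment, and so samples CpG-rich regions. There were 3 groups of 2 libraries. The first group had unilateral ureteral obstruction (UUO) for 7 days, a model in which the left ureter is tied off and cut, with intraperitoneal 5AZA (an inhibitor of DNA methyltransferases) at 1 mg/kg/day in saline. The second had UUO for 7 days with saline. The third had a sham operation without ligation. Sham 1 was labelled as the control of the 7-day obstruction, and sham 2 as the control of a kidney ischemia/reperfusion experiment, with 48 h in its name, so the time and the experiment of sham 2 differ from those of the other libraries. The labels do not say whether the 2 libraries of a group came from separate mice, and every p-value here therefore measures the spread between these libraries, which may be technical. Whole cortex and outer medulla hold many cell types, so a changed mix of cells and a changed methylation within cells cannot be told apart. No RNA values were used, so neither the expression of the 4 genes nor the labelled tissue could be checked by expressed markers.

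Each gene was taken as a fixed span of the mm9 genome that holds the gene and its surroundings: chr2:136905000-136946000 for Jag1, chr2:26311000-26363000 for Notch1, chr17:32255000-32307000 for Notch3 and chr16:30062000-30070000 for Hes1. All CpG sites in a span with at least 10 covering reads in all 6 libraries were kept. That gave 134 sites for Jag1, 87 for Notch1, 95 for Notch3 and 130 for Hes1, which make 446 of the 943307 such sites in the genome. Sites seen in any library numbered 212 in the Jag1 span, 182 in Notch1, 167 in Notch3 and 223 in Hes1. Covering reads summed over CpG sites lay between 37728517 in sham 2 and 76730132 in saline 1. The median coverage per site lay between 21 reads in sham 2 and 48 reads in saline 1. Neighbouring CpG sites on a fragment share reads, so sites are not independent counts. A read that covers several sites counts once at each, in these sums and in the read totals of windows below. Exons, introns and UTRs of mm9 were not assigned here.

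The promoters of Jag1 and Notch3 are shown because their letters carry the first result, the strong dependence of the level on the MspI site. They are RefSeq sequences (GRCm38.p6), from 250 bases before to 50 bases after the transcription start, written 5′ to 3′ on the gene's own strand. Each was placed on mm9 by matching its CpG spacing to the CpG positions in the deposited files: 15 covered CpG sites matched for Jag1 and 14 for Notch3, at a single place of the chromosome. The placed positions are chr2:136942207-136942506 for Jag1 and chr17:32303786-32304085 for Notch3, both on the minus strand. Capitals mark the CpG sites with 10 or more reads in all 6 libraries.

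Jag1: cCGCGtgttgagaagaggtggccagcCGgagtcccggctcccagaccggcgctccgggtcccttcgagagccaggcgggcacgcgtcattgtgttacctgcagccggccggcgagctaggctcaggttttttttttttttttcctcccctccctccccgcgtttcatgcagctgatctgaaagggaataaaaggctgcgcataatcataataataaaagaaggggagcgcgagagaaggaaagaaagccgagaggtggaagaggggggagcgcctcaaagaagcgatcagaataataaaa

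Notch3: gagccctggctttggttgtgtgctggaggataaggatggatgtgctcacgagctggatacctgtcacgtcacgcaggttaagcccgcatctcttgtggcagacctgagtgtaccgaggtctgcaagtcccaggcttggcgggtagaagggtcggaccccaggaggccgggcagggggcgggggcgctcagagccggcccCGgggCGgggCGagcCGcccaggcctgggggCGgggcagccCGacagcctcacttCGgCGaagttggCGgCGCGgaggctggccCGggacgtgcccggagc

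The Jag1 sequence holds 22 CpG sites, of which 3 were measured in every library, and the Notch3 sequence holds 25, of which 12 were. In the Jag1 promoter, the CpG that begins at base 27 lies in a CCGG, the MspI site. Its level was 83.6% and 81.7% in 5AZA 1 and 2, 78.9% and 73.2% in saline 1 and 2, and 67.7% and 73.3% in sham 1 and 2, with 56 to 71 reads per library. The 5AZA libraries were the highest there, and saline and sham overlapped. The other 2 measured sites, at bases 2 and 4, lie within 25 bases of it and averaged 0.81% and 0% with 5AZA, 0.70% and 0.88% with saline, and 1.61% and 1.64% in sham. The 0% of 5AZA 2 rests on 60 reads at each of the 2 sites. Taken as 120 separate reads, they would allow a level of up to 2.5%, counting error only. Sites this close share reads, so the limit is higher than that. The Notch3 promoter gave the same picture: the 2 sites in a CCGG, at bases 200 and 284, had mean levels of 57.5% and 73.4% over the 6 libraries, while the 10 sites between them lay between 0% and 3.25%, with a mean of 1.18%.

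That split held for promoters at large. Over the RefSeq promoters that could be placed, 13796 CpG sites in a CCGG had a mean level of 73.1%, and 13779 of them were at 30% or more. The 57395 sites of other context had a mean of 3.23%, and 992 of them were at 30% or more. The labels' protocol states that methylated dCTP was among the nucleotides used to repair the ends left by MspI, and whether that sets the level of these sites was not tested. Sites that look like such fragment ends were therefore marked in the 4 spans by 2 features, a coverage close to the sum of both neighbours, or a level of 30% or more in a CpG-rich window whose median was under 5%. They numbered 25 for Jag1, 9 for Notch1, 14 for Notch3 and 28 for Hes1. Their mean levels were 72.3% and 72.6% with 5AZA, 73.8% and 73.4% with saline, and 71.5% and 69.2% in sham. Because the second feature uses the level itself, the low level of the sites that remain is partly set by the rule.

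**Figure D1:**
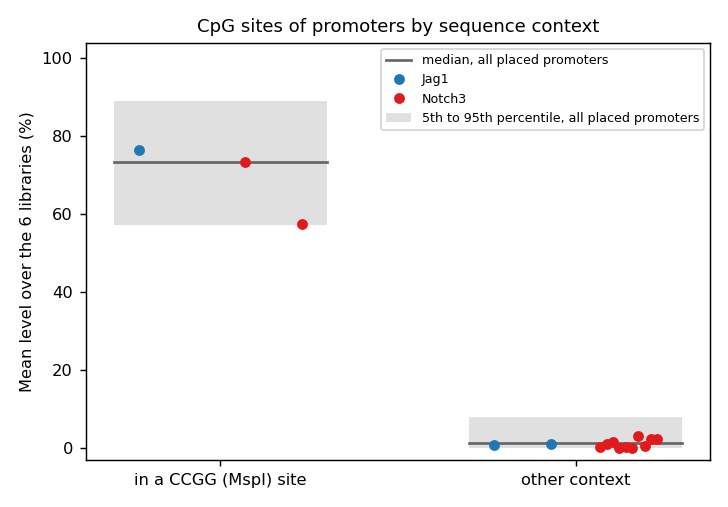
Mean methylation level (%, vertical axis) of the measured CpG sites in the Jag1 and Notch3 promoters, split by sequence context (horizontal axis). Points are single CpG sites averaged over the 6 libraries, grey bands the 5th to 95th percentile and lines the median over all placed promoters; the 3 CCGG sites of the members sit between 57.5% and 76.4%, and the 12 other sites at 3.25% or less.

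The 4 genes had different methylation profiles. Jag1 and Hes1, the ligand and the target gene, were almost unmethylated over most measured sites: 98 of 134 Jag1 sites and 89 of 130 Hes1 sites had a mean level under 5%, and the median site lay at 1.79% in Jag1 and 2.16% in Hes1. In Notch1, a receptor, 41 of 87 sites were at 80% or more and the median site was at 77.3%. Notch3, the other receptor, was mixed, with 48 of 95 sites under 20%, 26 at 20 to 80% and 21 at 80% or more, and a median of 19.0%. The measured sites also lay in different places: the Jag1 sites of the 4 windows of 1 kb around the start were low apart from the marked sites, while Notch1 had many measured sites far downstream.

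**Figure D2:**
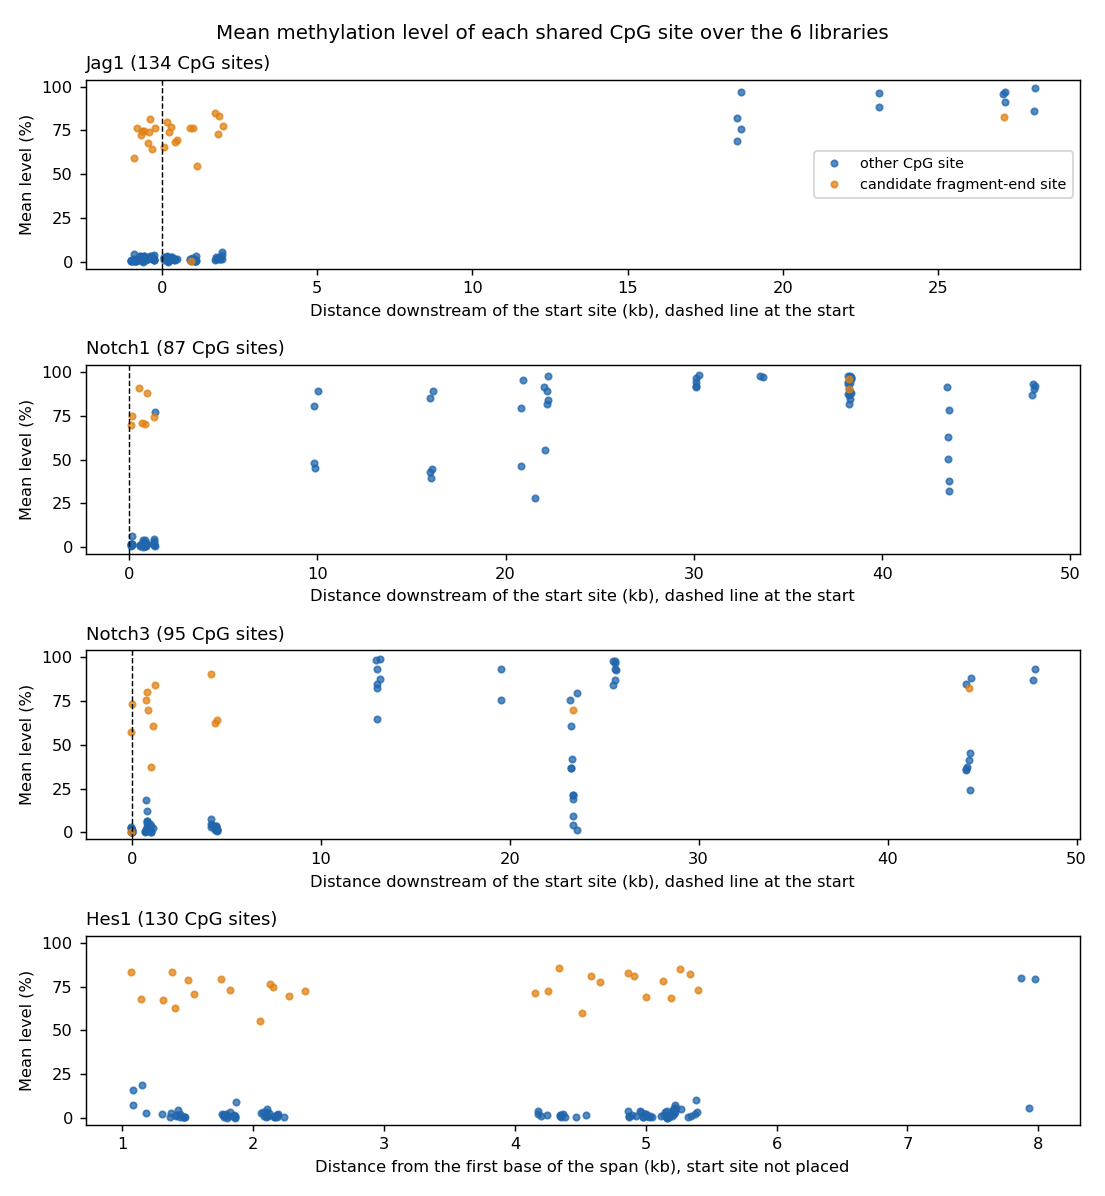
Mean methylation level (%, vertical axis) of each measured CpG site over the 6 libraries, against distance downstream of the RefSeq start placed on mm9 (kb, horizontal axis); for Hes1, whose start was not placed, distance runs from the first base of the span. Each point is 1 site, orange for the marked fragment-end candidates; the sites near the starts lie at low levels with a second band near 75% of marked sites, and Notch1 and Notch3 hold intermediate and high sites further downstream.

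Averaged over sites, saline-treated obstructed kidneys had the highest level in each of the 4 genes. For the ligand gene Jag1 the mean level was 21.8% and 21.3% in the 5AZA libraries, 22.4% and 22.1% in the saline libraries, and 21.8% and 20.5% in the sham libraries. Both saline values were above all the others, and the 5AZA and sham values overlapped. The gap was small, -0.69 points for 5AZA minus saline and 1.08 points for saline minus sham. The second was 0.43 points without sham 2, 1.73 points without sham 1 and 0.65 points without the marked sites described above, and the first was -0.23 points with a minimum of 20 reads.

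For Notch1 the mean level was 56.3% and 53.9% with 5AZA, 57.6% and 59.8% with saline, and 55.8% and 56.2% in sham. Saline was again above both other groups, by 2.65 points over sham, and 5AZA minus saline was -3.51 points. The 5AZA libraries lay 1 above and 1 below both sham libraries, with a difference of -0.86 points. Saline minus sham was 1.55 points without saline 2 and 1.32 points with a minimum of 20 reads, and 5AZA minus saline was -2.31 points without 5AZA 2.

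Notch3 averaged 36.6% and 35.2% with 5AZA, 38.1% and 38.0% with saline, and 37.3% and 33.1% in sham. The saline libraries were the highest, but sham 1 was within 1 point of them and sham 2 was well below, so most of the 2.87 points between saline and sham came from sham 2. Without sham 2, saline minus sham was 0.76 points and 5AZA minus sham was -1.38 points, beside 0.74 points with it. Without sham 1 they were 4.98 and 2.85 points.

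Hes1 averaged 18.8% and 19.5% with 5AZA, 19.5% and 20.5% with saline, and 18.6% and 17.4% in sham. All 3 groups were in order without overlap, saline above 5AZA and 5AZA above sham, although 5AZA 2 and saline 1 differed by less than 0.05 points. The differences were -0.88 points for 5AZA minus saline, 1.97 for saline minus sham and 1.09 for 5AZA minus sham. With single libraries left out, 5AZA minus saline was -0.39 points without saline 2, -0.53 without 5AZA 1 and -1.36 without saline 1. 5AZA minus sham was 0.49 points without sham 2 and 1.69 without sham 1, and 0.65 points with a minimum of 20 reads.

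Saline libraries were also the highest over the whole genome. All 943307 sites averaged 43.5% and 43.1% with 5AZA, 45.3% and 45.3% with saline, and 44.4% and 42.9% in sham, with differences of -2.04 points for 5AZA minus saline and 1.61 points for saline minus sham. Of the 4 genes, Jag1 and Hes1 had a smaller 5AZA minus saline gap than the genome, and Notch1 and Notch3 a larger one (-2.13 points in Notch3). The spans differ from the genome in their mix of levels. In Jag1, Notch1, Notch3 and Hes1, sites under 20% gave -0.38, 0.56, -0.61 and -0.68 points, beside -0.37 in the genome. Sites of 20 to 80% gave -1.35, -8.25, -3.88 and -0.86 points, beside -3.96. Most sites of that class in Jag1 and Hes1 were marked as fragment-end candidates. Its unmarked sites gave -17.4 points in Jag1 (2 of 22 sites) and -2.47 in Hes1 (1 of 21 sites). They gave -10.7 points in Notch1 and -6.36 in Notch3, beside -6.01 in the genome. Sites of 80% or more gave -1.90, -3.78, -3.43 and -3.15 points, beside -3.33. In Hes1, 1 of these 9 sites was unmarked. These are descriptions with no test between a gene and the genome. With 2 libraries against 2, the smallest p an exact two-sided permutation test can give is 0.33, and each gap without overlap named above had that value (exact permutation p = 0.33). Weighting by reads instead of by site (summed methylated over summed covering reads of the span) moved many of the differences of whole spans. It turned 3 directions: 5AZA minus saline became 0.69 points in Jag1 and 0.38 points in Notch3, and saline minus sham became -0.17 points in Notch1. In Hes1 the 3 groups were then nearly level, with -0.015 points for 5AZA minus saline, 0.023 for saline minus sham and 0.0084 for 5AZA minus sham. In Notch1, 5AZA minus saline became -0.073 points and 5AZA minus sham -0.24 points. In Notch3, saline minus sham became 5.86 points and 5AZA minus sham 6.25 points, and in Jag1 5AZA minus sham became 2.28 points. By this weighting, saline libraries overlapped the sham libraries and the 5AZA libraries in each of the 4 genes. The 5AZA libraries were above sham without overlap in Jag1 and Notch3 only.

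**Figure D3:**
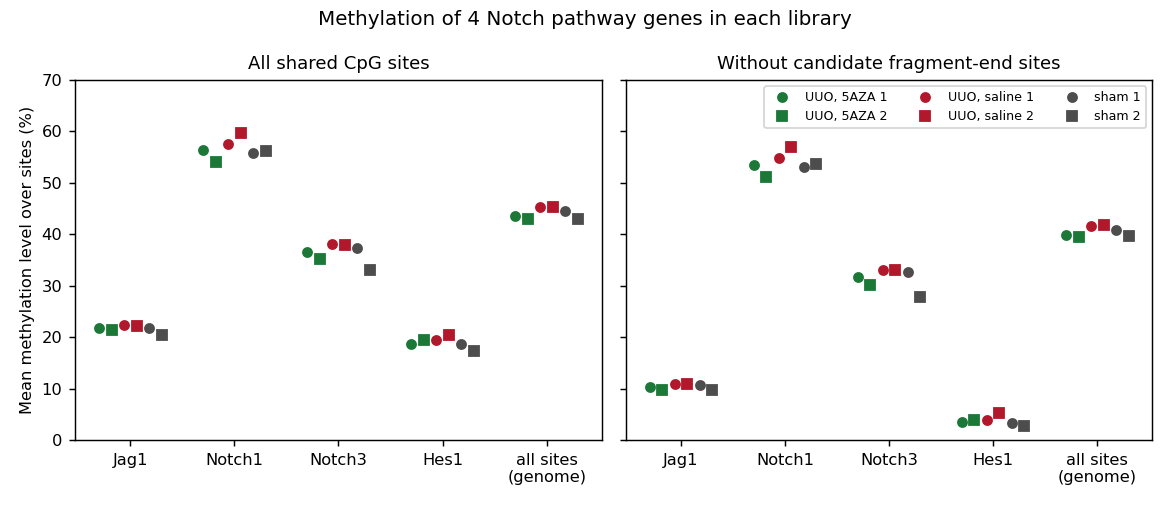
Mean methylation level over the sites of each gene (%, vertical axis) in each library, over all shared CpG sites (left) and without the marked fragment-end sites (right), with the whole genome beside them. Points are libraries, green for UUO with 5AZA, red for UUO with saline and grey for sham; saline libraries are highest in each gene on the left, and without the marked sites the levels of Hes1 lie between 2.82% and 5.24% and those of Jag1 between 9.72% and 10.96%.

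Without the marked sites the levels of Hes1 and Jag1 were lower. The mean level of Hes1 was then 3.65% and 4.03% with 5AZA, 3.94% and 5.24% with saline, and 3.39% and 2.82% in sham, over 102 sites. Saline stayed above sham, while saline and 5AZA now overlapped. Jag1 without them averaged 10.4% and 9.74% with 5AZA, 10.88% and 10.96% with saline, and 10.8% and 9.72% in sham, over 109 sites. Saline remained highest, and 5AZA minus sham turned to -0.17 points.

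Gaps between groups were wider at the intermediate sites of Notch1 and Notch3. Among unmarked sites of intermediate mean level (20 to 80%), the 15 of Notch1 averaged 50.9% and 43.8% with 5AZA, 55.8% and 60.2% with saline, and 47.0% and 49.6% in sham. Saline was above both other groups, by 9.69 points over sham, and 5AZA minus saline was -10.7 points. The 16 such sites of Notch3 averaged 47.6% and 43.2% with 5AZA, 51.7% and 51.9% with saline, and 48.9% and 33.0% in sham, where sham 2 again stood below the other 5 libraries. Over the 106889 such sites of the genome, saline was 4.85 points above sham and 5AZA minus saline was -6.01 points. The highly methylated sites moved less: the 41 Notch1 sites at 80% or more averaged 90.5% and 88.3% with 5AZA, 91.8% and 94.6% with saline, and 91.1% and 91.9% in sham. There both 5AZA libraries were below all 4 others, with -3.78 points for 5AZA minus saline, beside -3.33 points at such sites of the whole genome.

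Site by site, the libraries of most of the 446 members overlapped between groups. Between saline and sham, 124 sites (27.8%) had both saline libraries above both sham libraries and 31 (6.95%) had both below, where 22.4% and 7.99% of all sites did. Between 5AZA and saline, 38 sites (8.52%) were above and 99 (22.2%) below, beside 8.71% and 26.0% of all sites. Between 5AZA and sham, 86 (19.3%) were above and 48 (10.8%) below, beside 13.6% and 15.6%. The Hes1 span had the highest share above sham with saline, 44 of 130 sites, and Jag1, Notch1 and Notch3 had 34 of 134, 24 of 87 and 22 of 95. Of the Hes1 sites, 100 had a mean level under 20%. Over all such sites of the genome, saline 1 and 2 were at 2.83% and 2.87%, and sham 1 and 2 at 2.39% and 1.44%. Some of the largest single-site gaps rested on few reads. At Notch3 position 32290837 the level was 77.8% and 77.4% with 5AZA, 83.5% and 81.0% with saline, and 70.8% and 0% in sham. The 0% of sham 2 rests on 12 reads, which allows up to 25%, and it makes most of the gap of 46.9 points between saline and sham.

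To test regions, methylated and unmethylated reads were summed over windows of 1 kb with at least 3 sites, and all 89813 such windows of the genome were fitted together with edgeR's quasi-likelihood test. That test draws the spread of each window towards a spread shared by all windows, with 10.4 prior degrees of freedom. A window's p therefore does not rest on its own spread alone. The level of a window is its summed methylated reads over its summed covering reads. The 4 spans held 30 windows: 6 in Jag1, 12 in Notch1, 7 in Notch3 and 5 in Hes1. Of these, 10 were under 20%, 12 at 20 to 80% and 8 at 80% or more.

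No member window passed a Benjamini-Hochberg adjusted p of 0.05 in edgeR's quasi-likelihood test in any of the 3 comparisons, and limma called none either. In the genome, 1.55% of windows passed for 5AZA minus saline, 0.0501% for saline minus sham and 0.00111% for 5AZA minus sham, and a count of 0 of 30 is near each of these background shares. At an unadjusted edgeR p under 0.05 there were 4 of the 30 member windows for 5AZA minus saline, 4 for saline minus sham and 2 for 5AZA minus sham. Over all 89813 windows there were 20851, 9372 and 13223 in the same order. By limma the member counts were 3, 3 and 2. Libraries did not overlap between 5AZA and saline in 12 windows that were lower and 3 that were higher with 5AZA, beside 49.1% and 5.69% of all windows. Saline was above sham without overlap in 10 windows and below in 2, beside 32.3% and 9.73%. 5AZA was above sham in 5 and below in 6, beside 12.9% and 31.9%. The median difference over the 30 windows was -1.83 points for 5AZA minus saline, 0.95 for saline minus sham and -0.77 for 5AZA minus sham, and over all windows -2.70, 1.13 and -1.12.

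**Figure D4:**
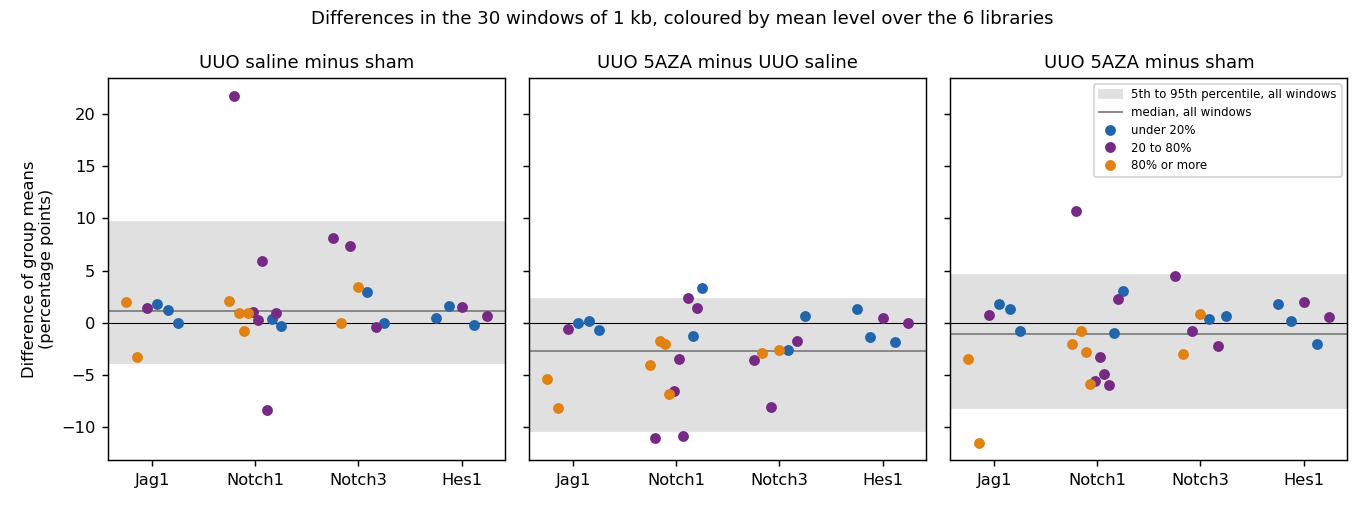
Difference of group means (percentage points, vertical axis) in each of the 30 windows of 1 kb, by gene, for the 3 comparisons. Points are windows coloured by mean level, grey bands the 5th to 95th percentile and lines the median of all windows; 1 Notch1 window lies at 21.8 points for saline minus sham, outside the band that ends at 9.69 points.

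Jag1, the ligand gene, differed little between groups around its start. The window that holds the start, 136942001 to 136943000 on chromosome 2, had the most sites (60) and the most reads, 2664 to 6518 per library. Its level was 14.9% and 15.1% with 5AZA, 15.2% and 14.5% with saline, and 14.0% and 13.3% in sham. Saline and 5AZA overlapped, and both lay just above sham, by 1.20 points for saline (edgeR adjusted p = 0.65) and 1.31 points for 5AZA (edgeR adjusted p = 0.50). The 5AZA and saline means differed by 0.12 points (edgeR adjusted p = 0.96). Without the marked sites of this window, the mean over sites was 0.59% to 2.35% in the 6 libraries. The next window downstream of the start, 136941001 to 136942000, with 30 sites, gave the smallest p of Jag1 for saline minus sham. Its level was 16.0% and 17.7% with 5AZA, 16.9% and 16.8% with saline, and 15.1% and 15.0% in sham. Saline was above sham by 1.82 points without overlap (edgeR adjusted p = 0.60). Its mean over unmarked sites was 0.90% to 1.95% in the 6 libraries.

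The Jag1 window with the widest gap lay 18756 bp downstream of the start, at 136923001 to 136924000, inside the gene by its RefSeq length of 35070 bp. It had 4 sites and 76 to 332 reads per library. The level was 75.7% and 72.8% with 5AZA, 82.8% and 82.1% with saline, and 86.0% and 85.5% in sham. All 3 groups were apart, with 5AZA lowest and sham highest, so the order differed from that of the gene mean. 5AZA minus saline was -8.23 points (edgeR adjusted p = 0.18) and 5AZA minus sham was -11.5 points (edgeR adjusted p = 0.19). Within it, the site at 136923601 read 67.2% and 55.6% with 5AZA, 75.6% and 77.4% with saline, and 83.7% and 94.7% in sham, on 19 to 82 reads. The site 4 bases away, at 136923597, was at 93.5% or more in every library. A further site, 136923734, had the widest 5AZA minus saline gap without overlap in Jag1, on 19 to 84 reads. It read 65.5% and 53.3% with 5AZA, 75% and 83.3% with saline, and 73.9% and 63.2% in sham. Both sham libraries were below saline there, and sham overlapped 5AZA, unlike the order of the window.

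Notch1, a receptor gene, gave the member window of smallest p. It lies at 26315001 to 26316000 on chromosome 2, 43842 bp downstream of the start at its middle, near the far end of the gene by its RefSeq length of 45921 bp. It holds 6 sites, none of them marked, and 108 to 251 reads per library. The level was 58.9% and 58.6% with 5AZA, 63.9% and 75.7% with saline, and 49.8% and 46.3% in sham. The 3 groups did not overlap: saline was highest, 5AZA in the middle and sham lowest. The mean was 58.7% ± 0.23 with 5AZA, 69.8% ± 8.32 with saline and 48.05% ± 2.48 in sham (SD, n = 2 each).

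Saline minus sham was 21.8 points in this window (edgeR adjusted p = 0.14), and by p it ranked 419 of all 89813 windows. 5AZA minus saline was -11.1 points (edgeR adjusted p = 0.16) and 5AZA minus sham was 10.7 points (edgeR adjusted p = 0.38). None of the 3 passed the threshold. The saline libraries stood further from each other than the libraries of the other groups did, and without saline 2 the gap to sham was 15.9 points. 5AZA minus saline was -5.21 points without saline 2 and -17.0 points without saline 1. With a minimum of 20 reads per site the window was no longer tested.

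The 6 sites of the Notch1 window behaved unevenly. At 26315862 the level was 53.1% and 48.7% with 5AZA, 62.9% and 70.7% with saline, and 40.0% and 27.8% in sham, on 18 to 41 reads, and the groups did not overlap. At 26315867, 5 bases on, it was 62.5% and 61.5% with 5AZA, 80% and 78.05% with saline, and 57.5% and 38.9% in sham, in the same order. At 26315785 it was 23.5% and 29.7% with 5AZA, 28.9% and 65.1% with saline, and 16.7% and 27.8% in sham, so there saline 2 stood alone. The outermost sites, 26315774 and 26315889, were high in all libraries, at 66.7% or more. At most 41 reads cover each value at 26315862, so a single site in 1 library carries a wide counting error.

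**Figure D5:**
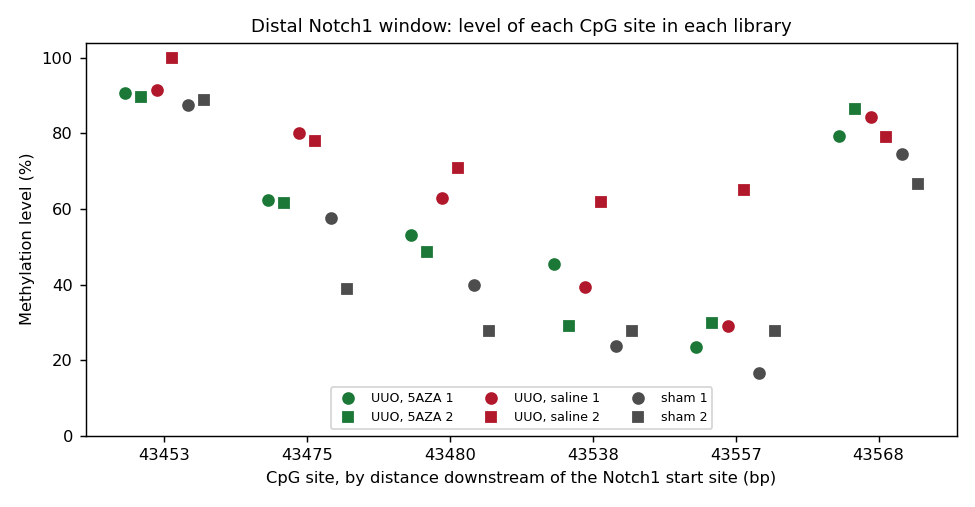
Methylation level (%, vertical axis) of the 6 CpG sites of the distal Notch1 window in each library, ordered by distance downstream of the Notch1 start (bp, horizontal axis). Points are single libraries, green for UUO with 5AZA, red for UUO with saline and grey for sham; the saline libraries are highest at the site of 26315862, at 62.9% and 70.7%, and saline 2 stands alone at 26315785, at 65.1%.

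A second Notch1 window, 26329001 to 26330000, gave the smallest member p for 5AZA minus saline. It has 5 sites, 114 to 300 reads and lies 29842 bp downstream. The level was 91.6% and 89.1% with 5AZA, 97.3% and 97.1% with saline, and 95.1% and 97.4% in sham. Both 5AZA libraries were below the other 4, with -6.84 points for 5AZA minus saline (edgeR adjusted p = 0.057) and -5.87 points for 5AZA minus sham (edgeR adjusted p = 0.25). At 26349001 to 26350000, chosen after its values were seen, saline was lower than sham: 64.2% and 64.9% with 5AZA, 60.0% and 64.3% with saline, and 71.0% and 70% in sham. Both other groups lay below sham there, with -8.37 points for saline minus sham (edgeR adjusted p = 0.50).

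Around the Notch1 start the levels were low. The window with the most sites (20), 26358001 to 26359000, just downstream of the start, had 27.8% and 26.8% with 5AZA, 26.2% and 25.7% with saline, and 25.6% and 24.4% in sham. The groups were apart but by little, 1.37 points for 5AZA minus saline (edgeR adjusted p = 0.69) and 0.93 for saline minus sham (edgeR adjusted p = 0.89). Without its marked sites, the mean over sites was 0.51% to 2.82% in the 6 libraries. The window of the start itself, 26359001 to 26360000, with 10 sites, had 17.4% and 25.6% with 5AZA, 16.6% and 19.8% with saline, and 20.1% and 16.9% in sham. All groups overlapped, and 5AZA 2 was the highest library. Here the mean over unmarked sites was 1.46% to 3.24% in the 6 libraries.

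Notch3, the receptor gene whose product is best known from vascular smooth muscle and pericytes, was flat at its start. The start window, 32303001 to 32304000 on chromosome 17, had the most sites (27), with 14.6% and 14.0% with 5AZA, 13.6% and 13.8% with saline, and 15.0% and 12.5% in sham. The 5AZA values were just above the saline values and inside the sham range. The edgeR adjusted p was 0.81 for 5AZA minus saline, 0.99 for saline minus sham and 0.88 for 5AZA minus sham. Without the marked sites of this window, the mean over sites was 2.27% to 3.94% in the 6 libraries.

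Further into Notch3, 23335 bp downstream of the start, the window 32280001 to 32281000 held 13 sites and 439 to 1157 reads. Its level was 39.5% and 34.7% with 5AZA, 49.9% and 40.6% with saline, and 36.2% and 39.6% in sham. Saline 1 stood above the other 5 libraries, and saline 2 was less than 1 point above the highest of the others. 5AZA minus saline was -8.11 points (edgeR adjusted p = 0.15), and saline minus sham was 7.33 points (edgeR adjusted p = 0.45). The first was -3.43 points without saline 1 and -12.8 points without saline 2. As a mean over its 12 unmarked sites, which weights sites equally, saline 2 was level with saline 1, at 36.9% and 37.2%, with 33.1% and 32.0% with 5AZA and 34.1% and 31.6% in sham.

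The Notch3 window of smallest p for saline minus sham was 32290001 to 32291000, with 7 sites, at 89.4% and 87.1% with 5AZA, 90.5% and 91.2% with saline, and 87.2% and 87.6% in sham. Saline was above both other groups, by 3.43 points over sham (edgeR adjusted p = 0.42), and by 1.47 points with a minimum of 20 reads (edgeR adjusted p = 0.66), which leaves out the site of 12 reads named above. For 5AZA minus sham it was 32278001 to 32279000, at 93.3% and 88.7% with 5AZA, 94.2% and 93.7% with saline, and 96.5% and 91.6% in sham. 5AZA and sham overlapped there (-2.99 points, edgeR adjusted p = 0.38), and the difference ran from -5.45 points without sham 2 to -0.53 points without sham 1. At 32259001 to 32260000, named after its values were seen, the level was 57.4% and 55.8% with 5AZA, 60.5% and 59.8% with saline, and 57.2% and 46.9% in sham, and sham 2 alone made most of the 8.07 points between saline and sham.

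In the span of Hes1, the target gene, the 4 windows with 22 or more sites lay between 12.4% and 23.4% in every library. No pair of group means differed by more than 2.09 points. These levels include the marked sites. As means over unmarked sites, which weight sites equally, the 4 windows lay between 0.65% and 4.93%. The window with the most sites (40), 30063001 to 30064000 on chromosome 16, had 18.2% and 21.3% with 5AZA, 16.9% and 19.8% with saline, and 18.7% and 17.2% in sham, with full overlap. At 30067001 to 30068000, with 34 sites, the level was 16.2% and 19.7% with 5AZA, 18.8% and 20.8% with saline, and 20.7% and 19.4% in sham. 5AZA 1 was the low library, and 5AZA minus saline was -1.85 points (edgeR adjusted p = 0.48). 5AZA minus sham was -2.09 points there, and 1.24 points without the marked sites. At 30064001 to 30065000, with 22 sites, it was 12.4% and 14.8% with 5AZA, 14.6% and 15.3% with saline, and 14.0% and 12.8% in sham, and saline was 1.55 points above sham (edgeR adjusted p = 0.72). The site of the widest gap there, 30064394, read 73.3% and 87.5% with 5AZA, 84.6% and 80% with saline, and 71.4% and 36.4% in sham, on 11 to 40 reads, with sham 2 alone far below.

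Other genes of the pathway were examined at their starts only. Of a list of 36 ligands, receptors, modifying enzymes, proteases, nuclear factors and targets, 29 had a RefSeq promoter, and 17 could be placed on mm9 and had a tested start window, which gave 18 windows because Dll1, a ligand gene, was placed at 2 starts. None passed in any comparison by edgeR's quasi-likelihood test, beside 0.0772% of all 6475 placed start windows for 5AZA minus saline, 0.0154% for saline minus sham and 0% for 5AZA minus sham. At an unadjusted edgeR p under 0.05 there were 0, 1 and 0, and by limma 0, 1 and 0. No share over all placed start windows is given for these unadjusted counts. Their mean levels lay between 6.79% and 29.7%, with a median of 16.1%, beside 17.6% over all placed start windows. The start windows of Jag1, Notch1 and Notch3, at 14.5%, 19.4% and 13.9%, lay inside this range. These window levels mix CCGG sites with other sites. In the placed promoters of the list, 138 sites outside CCGG had a mean level of 2.22%, and 29 sites in a CCGG one of 68.1%.

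For saline minus sham the smallest p belonged to Hey2, a target gene related to Hes1. Its start window had 15.5% and 15.3% with 5AZA, 16.9% and 15.5% with saline, and 14.5% and 13.0% in sham. Saline was above sham by 2.49 points (edgeR adjusted p = 0.43). Aph1a, a part of the gamma-secretase that cuts the receptor, came next, with 5.76% and 7.17% with 5AZA, 8.42% and 9.47% with saline, and 5.83% and 4.07% in sham. Saline was above both other groups at Aph1a, by 3.996 points over sham (edgeR adjusted p = 0.51), and 5AZA minus saline was -2.48 points (edgeR adjusted p = 0.37). The second smallest p for 5AZA minus saline was that of Adam10, a protease that cuts the receptor at the cell surface, with a difference of 1.31 points (edgeR adjusted p = 0.67). For 5AZA minus sham it was Maml1, a coactivator of the Notch and Rbpj complex, at 2.29 points (edgeR adjusted p = 0.39), and a Dll1 start at 2.45 points (edgeR adjusted p = 0.42). Over the 18 windows the median difference was -0.06 points for 5AZA minus saline, 0.67 for saline minus sham and 0.92 for 5AZA minus sham, and over all placed start windows -0.0019, 1.01 and 1.02.

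The letters TGGGAA or TTCCCA, the core bound by Rbpj, were absent from the promoter windows of Jag1, Notch1 and Notch3 on both strands, and 25.6% of 32851 RefSeq promoters hold them. CCGG was present 6 times in the Jag1 promoter, 1 time in that of Notch1 and 5 times in that of Notch3, and in 52.8% of all promoters. By their letters these motifs cannot overlap, and no match says only that these letters are not in the window.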

How the data were processed

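DNA methylation was measured by RRBS in 6 kidney libraries. Per the labels' protocols, DNA was cut with MspI, end-repaired with a mix holding methylated dCTP, size-selected and bisulfite-converted. The submitters' processing notes name Bowtie and mm9, without versions or roles, and for the methylation caller and its filters the sources used here give no name. The deposited files, 1 per library, give for each CpG site the count of covering reads, the count of methylated reads and the methylated fraction.

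From these counts, sites with at least 10 covering reads in all 6 libraries were kept and levels computed in percent. A gene's level is the mean over the sites of its span, and a window's level is summed methylated over summed covering reads. Windows of 1 kb with at least 3 sites entered edgeR 4.0.16, run in R 4.3.3 (quasi-likelihood test on both read counts, with 1 intercept for each library and group terms for methylated reads only, fitted over all 6 libraries), adjusted by Benjamini-Hochberg over 89813 windows at 0.05. Gene means were compared by exact two-sided permutation tests. Differences are 5AZA minus saline, saline minus sham and 5AZA minus sham.

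Fragment-end candidates were covered to within 5% of what their neighbours on both sides sum to (neighbours up to 220 bp away that hold 10% of it or more), or averaged 30% or more inside a window with 10 or more sites whose median stayed under 5%. RefSeq promoters (GRCm38.p6) were placed on mm9 where every covered CpG in the window was a CpG of the sequence, with at least 6 matches and 1 placement on the chromosome. Of 32851 sequences, 18541 had 6 or more CpG sites and 8245 had 1 placement, of which 101 more than 10 Mb from the RefSeq position were dropped. Promoters of Jag1, Notch1 and Notch3 were placed. That of Hes1 was not used here.

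Named windows were, per gene, that of the smallest p in each comparison, that with the most sites and that of the start. Named sites had the largest gap without overlap per gene and comparison, and named pathway genes the 2 smallest p in each comparison. The members, lists and rules were chosen with earlier results of these data known. Other settings tried were 5 or 20 reads as the minimum, removal of the deepest 0.1% of sites or of fragment-end candidates, gene levels weighted by reads, limma 3.58.1 on log2 ratios after adding 1 to each count, 500 bp windows, 5 sites as the window minimum, a gap of 10 points required for a call, fits of only the 4 libraries compared, a replicate block, and each library left out. Reads of a PCR library without molecular identifiers are not independent molecules, so limits from counts cover counting error only.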

Additional observations from a re-analysis of the deposited data

How the results depend on the processing

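The count of 0 member windows called held under all alternatives except 1. With a replicate block in the 4 UUO libraries, 2 of the 30 windows were called for 5AZA minus saline by edgeR (Notch1 26329001, adjusted p = 0.031, and Notch3 32280001, adjusted p = 0.028), while 6856 of all 89813 windows of the genome were called. The labels give saline and 5AZA the same replicate numbers without saying that a number marks a shared animal or batch. Over the 29804 windows of 20 to 80%, same-numbered libraries deviated together with a correlation of 0.12, and over the 30 member windows with -0.17. Within each number, 5AZA minus saline was -0.57 and -0.80 points in Jag1, -1.21 and -5.81 in Notch1, -1.54 and -2.72 in Notch3, and -0.74 and -1.02 in Hes1. The counts for the pathway promoters were 0 in every alternative run.

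Directions of gene means turned in 8 cases. With 1 library left out, 5AZA minus sham turned to -0.26 points in Jag1, 0.34 in Notch1 and -1.38 in Notch3. With a coverage minimum of 5, Notch1 5AZA minus sham was 0.13 points. Without fragment-end candidates, Jag1 5AZA minus sham was -0.17. Read-weighted, Jag1 and Notch3 5AZA minus saline were 0.69 and 0.38, and Notch1 saline minus sham was -0.17, beside 2.65 by site. Among windows, a minimum of 5 reads gave the Notch1 start window 0.80 for saline minus sham and -0.43 for 5AZA minus saline. Without fragment-end candidates, the Notch3 start window gave 0.26 for saline minus sham, Hes1 30063001 -0.31 and the Jag1 start window -0.18 for 5AZA minus saline, and Hes1 30067001 1.24 for 5AZA minus sham. The cause was not tested.

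The distal Notch1 window 26315001, the Jag1 window 136923001 and the Notch3 window 32278001 had no value with a minimum of 20 reads. Jag1 136923001, with its 4 sites, also had none with a minimum of 5 sites. With 1 library left out, the fit lets the single library left in a group share the spread of the other groups. Gene means for 5AZA minus sham ran from -0.26 to 1.04 in Jag1, -2.06 to 0.34 in Notch1, -1.38 to 2.85 in Notch3 and 0.49 to 1.69 in Hes1. For saline minus sham they ran from 0.43 to 1.73 in Jag1, 1.55 to 3.75 in Notch1, 0.76 to 4.98 in Notch3 and 1.37 to 2.57 in Hes1, and for 5AZA minus saline from -0.92 to -0.46, -4.71 to -2.31, -2.80 to -1.46 and -1.36 to -0.39 in the same genes. Window differences ran as follows for 5AZA minus saline: -0.25 to 0.48 in Jag1 136942001, -0.80 to 7.38 in Notch1 26359001 and -0.20 to 2.89 in Hes1 30063001. For saline minus sham they ran from -1.86 to 1.30 in Notch1 26359001, -1.32 to 1.21 in Notch3 32303001 and -1.02 to 1.82 in Hes1 30063001. For 5AZA minus sham they ran from -1.08 to 7.10 in Notch1 26359001 and -0.67 to 1.86 in Notch3 32303001. Sham 2 is the shallowest library and of another experiment, and 2 libraries a group limit every test.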
